A study of Homo sapiens with 18 samples.

Results

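TP53I3 and TP53I11 are 2 of the 60622 genes counted in RNA sequencing of the H1299 line (non-small cell lung cancer, human), which makes no p53 protein of its own. Both were taken by their gene symbols, and they were chosen by their measured log2 fold changes with the AceTAG compounds over DMSO in induced cells, among the largest of all p53 targets in these same libraries. Their compound responses are therefore given as descriptions with errors and without tests. An AceTAG compound is a heterobifunctional molecule that is designed to draw an acetyltransferase onto proteins tagged with FKBP12F36V, and the series asked how the transcriptome changes with them. All libraries were labelled 24 h, and there were 18 libraries in 6 groups of 3. The first group held cells induced for wild-type p53-FKBP12F36V and given AceTAGp300/CBP-1 (the p300/CBP compound), the second held induced cells given AceTAGPCAF/GCN5-4 (the PCAF/GCN5 compound), and the third held induced cells given DMSO, the vehicle. The other 3 groups were non-induced H1299 cells given the p300/CBP compound, the PCAF/GCN5 compound or DMSO. The tagged p53 carries an HA tag and is under doxycycline control. The name p53-FKBP12F36V appears in the titles of induced samples alone, and no label states if non-induced cells carried the construct or received doxycycline, so the tagged p53 and the drug cannot be told apart in the induction comparison. The labels give no compound dose, so any comparison between compounds holds for the amounts that were used. No label states that replicates were separate cultures, and p-values measure the spread between these libraries only.

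The transcription factor p53 binds DNA at its target genes and raises their transcription, in part with the help of acetyltransferases that modify p53 and the chromatin around it. TP53I3 (also called PIG3) encodes a quinone oxidoreductase linked to the production of reactive oxygen species in p53-dependent cell death. TP53I11 (also called PIG11) encodes a membrane protein whose function is less well defined. Both carry names from a series of genes first found as induced by p53.

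TP53I3 (ENSG00000115129) lies on chromosome 2 from 24077433 to 24085861, minus strand, and TP53I11 (ENSG00000175274) on chromosome 11 from 44885903 to 44951306, minus strand. These deposited coordinates equal the GENCODE 29 spans on GRCh38. Their transcripts share a sequence feature that the choice of the genes did not use: an unbroken run of the 5-base units TGTCC and TGCCC on the sense strand. A run of such units in TP53I3 is known as an element through which p53 acts on that gene. The first 30 bases of each run are shown, read 5′ to 3′ on the minus strand from GENCODE 29 transcripts on GRCh38, because they set the 2 genes side by side. Capitals mark TGTCC units and lower case marks TGCCC units.
TP53I3, chr2:24084388-24084417: tgcccTGTCCTGTCCtgccctgcccTGTCC
TP53I11, chr11:44950797-44950826: tgccctgccctgcccTGTCCtgccctgccc

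The whole run in TP53I3 had 15 units over 75 bases (24084343 to 24084417), of which 6 were TGTCC and 9 were TGCCC. It lay in the 5′ UTR of a protein-coding TP53I3 transcript and began 91 bases before the coding start and 417 bases after the gene's RefSeq start site. The run in TP53I11 had 9 units over 45 bases (44950782 to 44950826), with 1 TGTCC and 8 TGCCC. It lay in the 5′ UTR of protein-coding TP53I11 transcripts and began 57, 480 and -666 bases from the gene's 3 RefSeq start sites (negative is before the start). Of 58676 GENCODE 29 genes, 43 (0.0733%) had a sense run of at least 3 units, against 27 (0.0460%) with such a run on the antisense strand. Sense runs of at least 5 units were found in 8 genes, and runs of at least 9 units in 2 genes, TP53I3 and TP53I11. The search was chosen after the 2 genes' transcripts had been read, so these counts are a description. The cutoff of 9 units is the run length of TP53I11 itself, so it was fixed beforehand that both genes reach it. HGS, which encodes an endosomal sorting protein and had a run of 8 units, was at a log2 fold change of -0.07 ± 0.08 (± SE, here and below) with the p300/CBP compound in induced cells (edgeR quasi-likelihood test, Benjamini-Hochberg adjusted p = 0.626), and VOPP1, with 5 units, was at -0.22 ± 0.10 (adjusted p = 0.244). SLC37A2 and AC005264.1, with 5 units each, were at -0.17 ± 0.39 (adjusted p = 0.818) and 0.12 ± 0.49 (adjusted p = 0.902). FOXN4, with 6 units, and ACE, with 5, did not pass the filter on low counts. Where the runs lie in these other genes is not given, and what a run does was not tested. The p53 half-site motif had 0 matches in the 1 promoter window of TP53I3 and in the 3 of TP53I11 (250 bases before to 50 after each RefSeq GRCh38.p14 start), while 6.63% of all 35116 windows held one. At that share, 0 matches in so few windows do not set the 2 genes apart. The pentamer runs lay outside these windows, so the matches say nothing of sites elsewhere in the genes.

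**Figure D1:**
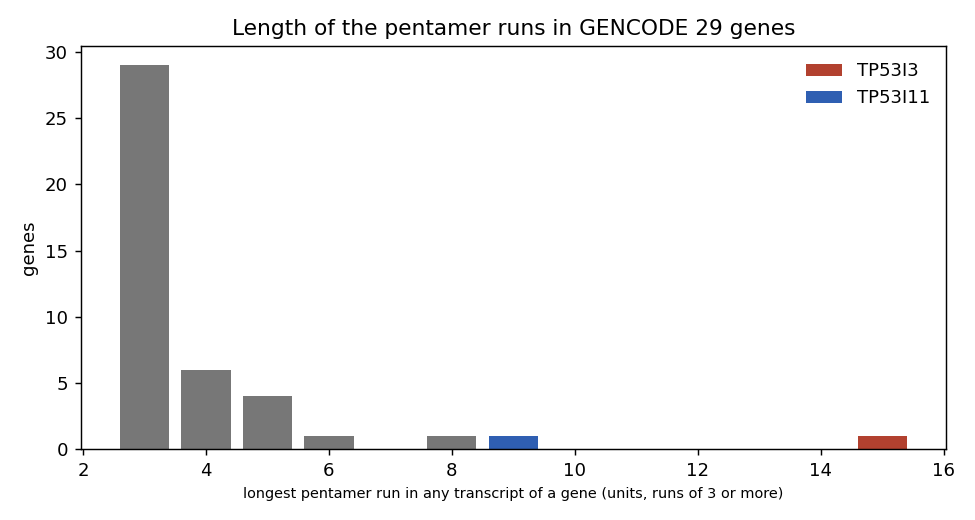
Number of GENCODE 29 genes (vertical axis) by the number of units in their longest sense run of the 2 pentamers (horizontal axis, runs of at least 3 units). TP53I11 with 9 units and TP53I3 with 15 units stand to the right of the other 41 genes, whose runs reach 8 units.

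Total counts per library were 9055888 to 29166322, so a count of 0 allowed up to 3 counts, or 0.103 to 0.331 CPM (counts scaled to a library total of 1e6). The lowest total was that of non-induced DMSO library 3, and every other library had at least 19268808 counts. That shallow library, with 4 TP53I11 counts, belongs to the baseline of the induction comparison and of both non-induced compound comparisons with DMSO. Levels below are CPM unless another scale is named. The line's markers KRT8, KRT18 and VIM were present in every library (at least 68.6 CPM), PTPRC was at 0 in all 18, and CD3E, PECAM1, ALB and MYH7 had at most 2 counts in any library. In induced DMSO cells, library 3 stood apart on the second principal component, with a score of 39.1 against 3.79 and 1.25 in its partners, and had a mitochondrial share of 0.714% of counts against 1.84% and 2.14%. Its TP53I3 and TP53I11 levels were the lowest of its group, by a small margin, as given below.

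TP53I3 was highest with the p300/CBP compound, lower with the PCAF/GCN5 compound and lower again with DMSO in induced cells, and all non-induced libraries lay below the induced ones. In induced cells it had 630, 635 and 633 CPM with the p300/CBP compound, 160, 153 and 178 CPM with the PCAF/GCN5 compound, and 84.3, 76.7 and 74.1 CPM with DMSO. In non-induced cells it had 27.3, 28.6 and 31.1 CPM with the p300/CBP compound, 24.99, 20.02 and 23.4 CPM with the PCAF/GCN5 compound, and 21.1, 20.9 and 20.3 CPM with DMSO. No 2 of the 6 groups overlapped, apart from the PCAF/GCN5 and DMSO groups of non-induced cells. Overlap is a description here and below, since the share of all genes whose groups lay apart is not given. The p300/CBP libraries of induced cells were nearly equal, with a coefficient of variation of 0.368%, against 7.78% in the PCAF/GCN5 group and 6.77% in the DMSO group. At their 12710 to 15299 counts per library, counting error alone exceeds 0.368%, so no difference in spread between groups is read from it.

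TP53I11 followed the same order in induced cells, and in non-induced cells it was near the counting floor. In induced cells it had 91.9, 99.98 and 99.7 CPM with the p300/CBP compound, 27.4, 26.02 and 27.1 CPM with the PCAF/GCN5 compound, and 3.61, 3.39 and 3.31 CPM with DMSO. In non-induced cells it had 0.492, 0.510 and 0.104 CPM with the p300/CBP compound, 0.508, 0.376 and 0.288 CPM with the PCAF/GCN5 compound, and 0.190, 0.429 and 0.442 CPM with DMSO. The 3 induced groups were apart from each other and from all non-induced libraries, while the 3 non-induced groups overlapped. The non-induced values rest on 2 to 13 counts per library, so differences among those groups were not detectable at this depth.

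**Figure D2:**
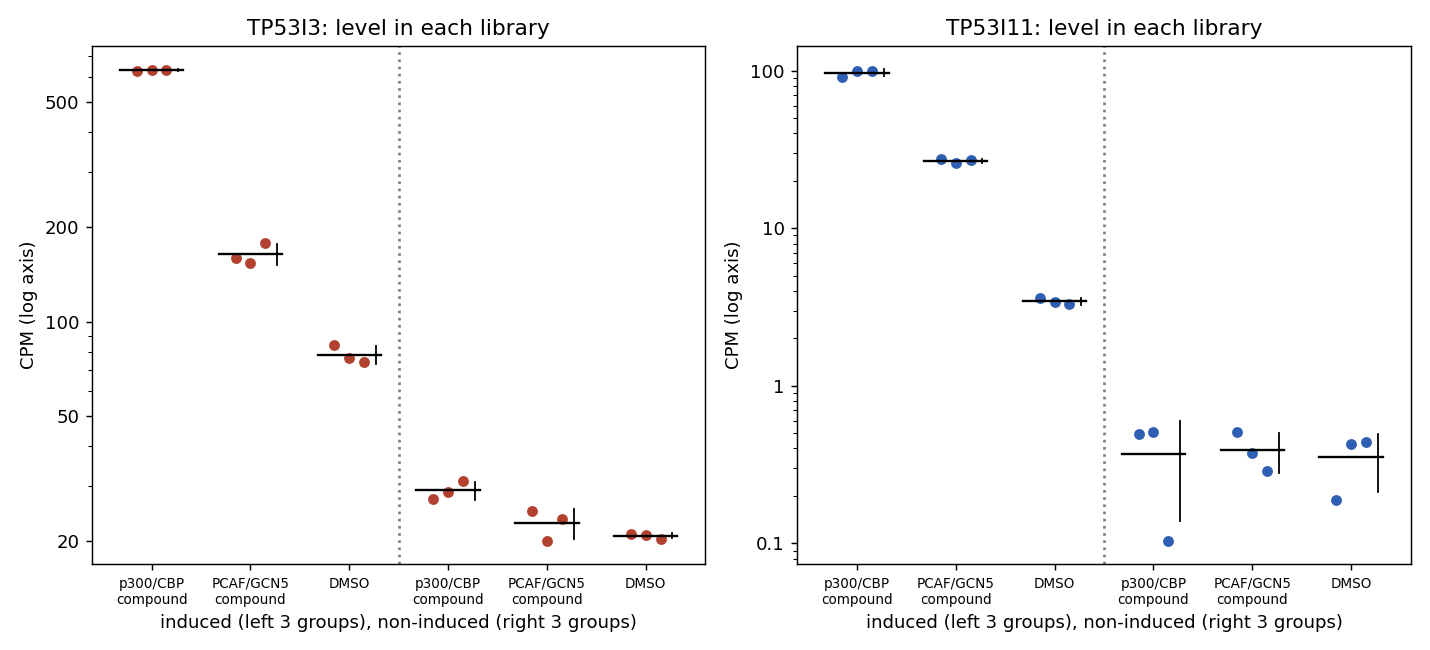
CPM of TP53I3 (left panel) and TP53I11 (right panel) on log axes in each of the 18 libraries, by group. Points are libraries, horizontal bars are group means and vertical bars are ± 1 SD (n = 3). The induced p300/CBP group averaged 633 CPM of TP53I3 and 97.2 CPM of TP53I11, and the non-induced DMSO group 20.7 CPM of TP53I3 and 0.354 CPM of TP53I11.

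Per length of transcript, TP53I3 was the more abundant gene in every group. On the TPM scale, which divides counts by the deposited exon length, TP53I3 averaged 1111 TPM and TP53I11 53.7 TPM with the p300/CBP compound in induced cells. With the PCAF/GCN5 compound the averages were 290 TPM for TP53I3 and 14.99 TPM for TP53I11, and with DMSO 138 TPM for TP53I3 and 1.90 TPM for TP53I11. In non-induced DMSO cells they were 36.6 TPM for TP53I3 and 0.196 TPM for TP53I11. TP53I3 was above TP53I11 in each of these groups.

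Induction of p53 in DMSO, a comparison that did not choose the genes but shares its induced DMSO libraries with the one that did, raised both. TP53I3 averaged 78.4 ± 5.31 CPM in induced cells and 20.7 ± 0.382 CPM in non-induced cells (SD, n = 3 each), a log2 fold change of 1.89 ± 0.08 (edgeR adjusted p = 2.66e-06, over 15055 genes), or 3.70-fold. TP53I11 averaged 3.44 ± 0.159 CPM in induced cells and 0.354 ± 0.142 CPM in non-induced cells, a log2 fold change of 3.33 ± 0.30 (edgeR adjusted p = 0.000162), or 10.1-fold. The non-induced DMSO libraries held 4 to 11 TP53I11 counts each, against 76 to 90 in the induced ones. TP53I11 passed the filter on low counts only through the induced libraries, so its p-value is no independent support for the rise. All 3 induced libraries lay above all 3 non-induced libraries for both genes. From summed counts, TP53I11 was 10.5 times higher in induced DMSO cells, with an exact 95% interval of 6.65 to 17.5 that covers counting error only.

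With p53 induced, the p300/CBP compound gave the largest levels of both genes. TP53I3 averaged 633 ± 2.33 CPM with the compound and 78.4 ± 5.31 CPM with DMSO, a log2 fold change of 3.0 ± 0.07, or 8.02-fold. TP53I11 averaged 97.2 ± 4.60 CPM with the compound and 3.44 ± 0.159 CPM with DMSO, a log2 fold change of 4.81 ± 0.09, or 28.04-fold. Among the 15019 genes tested, TP53I11 stood 4th and TP53I3 17th from the top by log2 fold change, which is the kind of value that chose them. In the authors' deposited table the same changes were 4.80 for TP53I11 and 2.99 for TP53I3.

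The PCAF/GCN5 compound left both genes above DMSO in induced cells, TP53I11 by the larger factor. TP53I3 averaged 164 ± 12.7 CPM with the compound and 78.4 ± 5.31 CPM with DMSO, a log2 fold change of 1.03 ± 0.08, or 2.04-fold. TP53I11 averaged 26.8 ± 0.735 CPM with the compound and 3.44 ± 0.159 CPM with DMSO, a log2 fold change of 2.93 ± 0.12, or 7.60-fold. TP53I11 stood 11th and TP53I3 127th from the top of 15078 genes. TP53I11 had the larger log2 fold change with both compounds, by 1.81 with the p300/CBP compound and 1.90 with the PCAF/GCN5 compound, which share their DMSO libraries.

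Between the compounds in induced cells, both genes were higher with the p300/CBP compound, by similar factors. The log2 fold change of the p300/CBP compound over the PCAF/GCN5 compound was 1.97 ± 0.06 for TP53I3 and 1.87 ± 0.06 for TP53I11. The groups did not overlap for either gene. The ratio of summed counts was 3.87 (exact 95% interval 3.79 to 3.95) for TP53I3 and 3.62 (3.44 to 3.81) for TP53I11.

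In non-induced cells the responses were small. TP53I3 averaged 28.98 ± 1.95 CPM with the p300/CBP compound and 20.7 ± 0.382 CPM with DMSO, a log2 fold change of 0.46 ± 0.08, and the groups did not overlap. With the PCAF/GCN5 compound it averaged 22.8 ± 2.54 CPM, a log2 fold change of 0.12 ± 0.09 over DMSO, and the groups overlapped. TP53I11 was at 0.19 ± 0.56 with the p300/CBP compound and at 0.22 ± 0.49 with the PCAF/GCN5 compound, where the wide errors come from few counts. The exact 95% intervals of its summed-count ratios over DMSO were 0.633 to 2.23 and 0.657 to 2.22, so a change within these bounds was not detectable at this depth.

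The p300/CBP log2 fold change was larger in induced than in non-induced cells by 2.56 ± 0.08 for TP53I3 and by 4.60 ± 0.54 for TP53I11. For the PCAF/GCN5 compound the difference was 0.91 ± 0.12 for TP53I3 and 2.69 ± 0.41 for TP53I11. Under the p300/CBP compound, induced cells held 21.98 times the TP53I3 counts per total of non-induced cells (exact 95% interval 21.002 to 23.02) and 252 times the TP53I11 counts (172 to 386). Under the PCAF/GCN5 compound the ratios were 7.19 (6.84 to 7.56) and 68.7 (48.0 to 102). These are descriptions, since the genes were chosen for their compound responses.

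**Figure D3:**
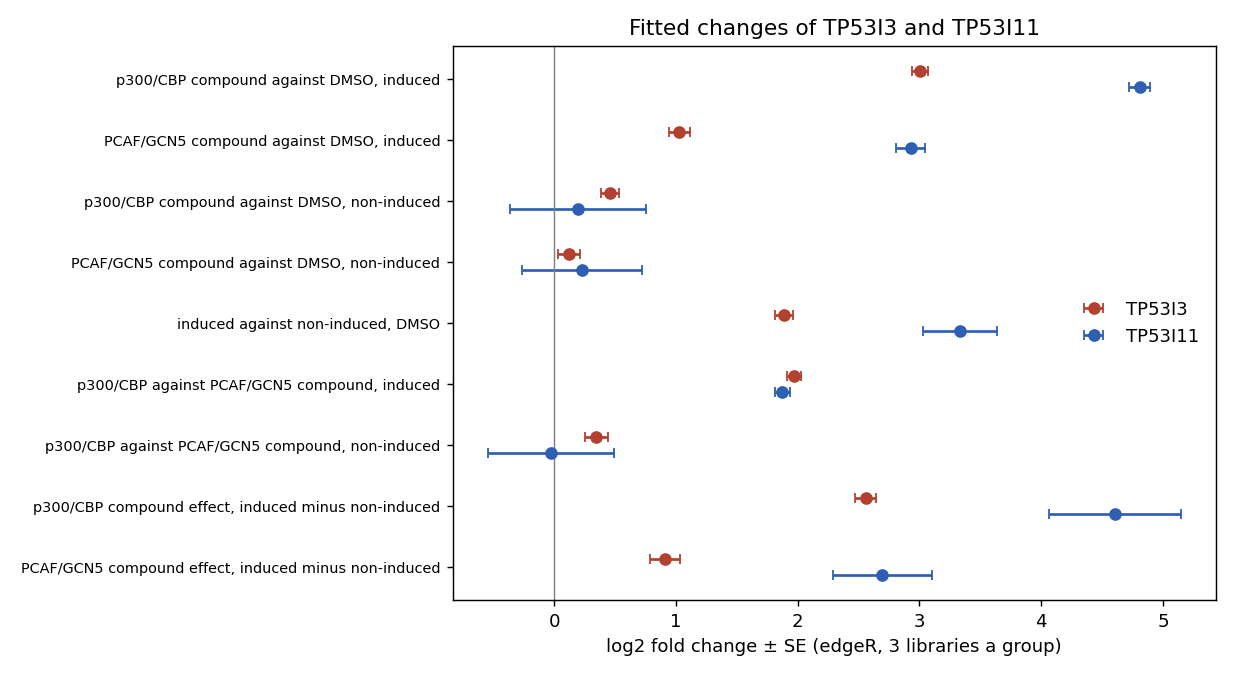
Log2 fold changes of TP53I3 and TP53I11 with their standard errors (horizontal axis) in the 9 comparisons (vertical axis), from edgeR fits on 3 libraries a group. TP53I11 lies to the right of TP53I3 in both induced compound comparisons and on induction, and the 2 genes are close where the compounds are set against each other in induced cells.

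Genes of the p53 pathway rose widely beside TP53I3 and TP53I11. The list held 64 other p53 targets, and the lists here were drawn up with earlier results of these data known. With the p300/CBP compound in induced cells, 38 of the 57 tested were called higher and 2 lower (E2F7 and BID), with a median log2 fold change of 0.57 against -0.00 over all genes, where 5.98% of all genes were called (2.94% higher and 3.04% lower). None of the 57 lay above TP53I3 or TP53I11, a rank that reflects how the 2 genes were chosen. The next of the list was CDKN1A, which encodes the cell cycle inhibitor p21, at 2.75 ± 0.08 (edgeR adjusted p = 2.34e-07). DPYSL4, which was not on the list, was at 2.97 ± 0.10 (edgeR adjusted p = 1.04e-06), above CDKN1A and close to TP53I3. By role, 13 of 18 arrest and feedback genes were higher, with SESN1, a stress-induced regulator of growth signalling, at 1.37 ± 0.08 (adjusted p = 3.79e-05). Of the death genes 10 of 18 were higher, with the death receptor FAS at 1.54 ± 0.08 (adjusted p = 2.42e-05). Of the repair and metabolism genes 15 of 21 were higher, with the lipid transfer protein gene PLTP at 2.32 ± 0.08 (adjusted p = 6.95e-07) and the glutaminase gene GLS2 at 1.90 ± 0.20 (adjusted p = 0.00101).

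In induced cells given the PCAF/GCN5 compound, 14 of 58 other targets were called higher and 0 lower, with a median of 0.35, where 0.345% of all genes were called (0.338% higher and 0.00663% lower). At an unadjusted p below 0.05, 36 of the 58 passed, and DESeq2 called 23, of which 22 were higher. Without induced DMSO library 3, 25 were higher, and without PCAF/GCN5 library 2 or 3, 7 were. GLS2 was the only other target at 2 or more, at 2.06 ± 0.21 (edgeR adjusted p = 0.0013). Of the 58, 6 lay above TP53I3 and none above TP53I11, places that the choice of the 2 genes by such values also shaped. PLTP was at 1.31 ± 0.09 (adjusted p = 0.00027), CDKN1A at 1.20 ± 0.08 (adjusted p = 0.00027) and BTG2, an antiproliferative gene, at 1.08 ± 0.09 (adjusted p = 0.000366).

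On induction in DMSO, 41 of 57 other targets were called higher and 2 lower (FANCC and E2F7), with a median of 0.74, where 13.8% of all genes were called (6.01% higher and 7.77% lower). Large rises included the stress cytokine GDF15 at 5.13 ± 0.28 (edgeR adjusted p = 1.37e-05), BTG2 at 3.89 ± 0.15 (adjusted p = 1.9e-06) and the mitochondrial reductase gene FDXR at 3.34 ± 0.23 (adjusted p = 3.74e-05), and PHLDA3 had 0 counts in all non-induced DMSO libraries. CDKN1A was at 1.95 ± 0.07 (adjusted p = 1.06e-06), close to TP53I3. In non-induced cells the p300/CBP compound left 7 of 54 targets called higher and 4 lower (9.89% of all genes called, 3.43% higher and 6.46% lower), of which CDKN1A was at 0.20 ± 0.06 (adjusted p = 0.0277), not called without the second p300/CBP library or any 1 of the 3 DMSO libraries, nor with all 6 groups in 1 fit (adjusted p = 0.0963 to 0.157 over these settings). The 4 lower were PCNA, PMAIP1, E2F7 and AEN, with the largest fall in E2F7 at -0.83 ± 0.09 (edgeR adjusted p = 3.44e-05). The largest called rise was TP53INP1 at 0.61 ± 0.12 (edgeR adjusted p = 0.00267). DESeq2 called 8 of the targets, of which 5 were higher. Without non-induced p300/CBP library 2, 2 of the targets were higher, and without non-induced DMSO library 1, 2 or 3, the number was 1, 1 and 3. The PCAF/GCN5 compound in non-induced cells called 0 of 53 by edgeR, with 4 at an unadjusted p below 0.05 and 0 by DESeq2, where 0.0199% of all genes were called (0.00662% higher and 0.0132% lower).

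**Figure D4:**
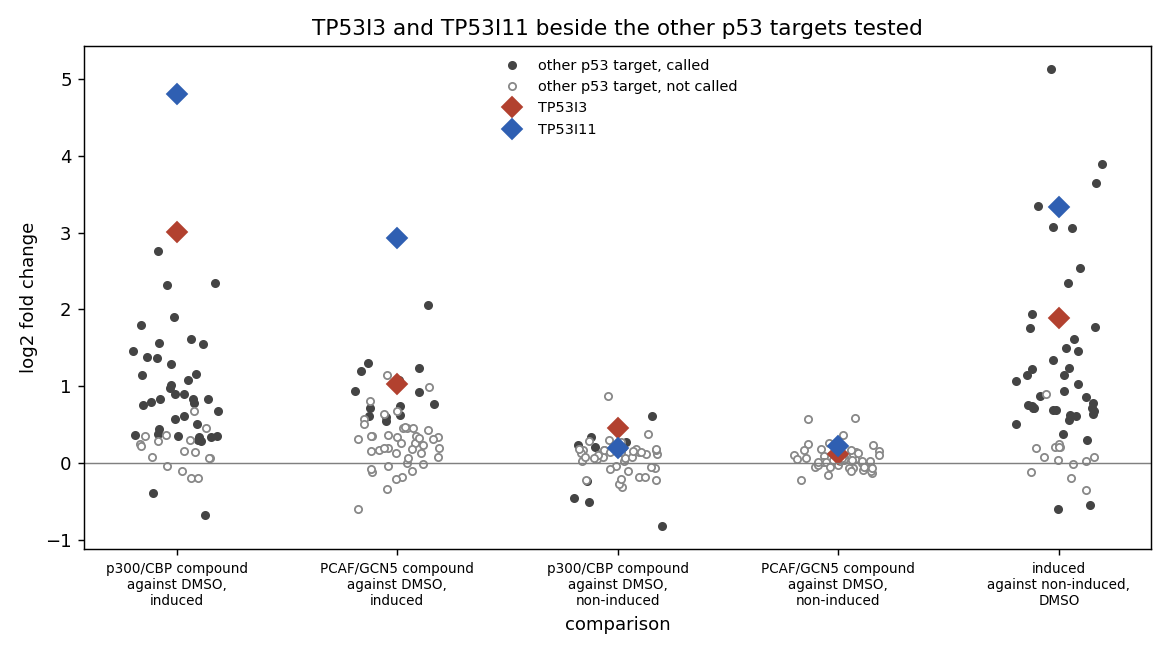
Log2 fold changes (vertical axis) of TP53I3, TP53I11 and the other p53 targets tested in 5 comparisons (horizontal axis); filled points passed an adjusted p of 0.05 and open points did not. TP53I3 and TP53I11 stand above all other targets with the p300/CBP compound in induced cells, TP53I11 does so with the PCAF/GCN5 compound, and PHLDA3 is left out on induction, where the non-induced DMSO libraries held 0 counts.

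The lists of other genes of the p53-induced series, of relatives of the TP53I3 enzyme and of oxidative stress genes are short, so their counts are read against the share of all genes called, which in induced cells was 5.98% for the p300/CBP and 0.345% for the PCAF/GCN5 compound. It was 9.89% with the p300/CBP compound in non-induced cells and 13.8% on induction. Of the 6 other genes of that series, 2 were tested with the p300/CBP compound in induced cells, and EI24, an endoplasmic reticulum protein gene, was higher by 0.34 ± 0.05 (edgeR adjusted p = 0.00687), a call that ended when any 1 of the p300/CBP libraries was left out (adjusted p = 0.0577 to 0.0604). EI24 was higher on induction by 0.44 ± 0.05 (adjusted p = 0.00069). Of 10 tested quinone reductases and relatives, 1 was called in the p300/CBP comparison, CRYZL1 at 0.39 ± 0.08 (adjusted p = 0.0206), which ended when any 1 of the p300/CBP libraries or the first induced DMSO library was left out (adjusted p = 0.0790 to 0.120), and a count of 1 in 10 is near the share over all genes. None of the 10 was called with the PCAF/GCN5 compound by edgeR (1 at an unadjusted p below 0.05, 0 by DESeq2). NQO1, the best-known quinone reductase, was at 0.03 ± 0.06 (adjusted p = 0.78) with the p300/CBP compound in induced cells and at 0.23 ± 0.04 (adjusted p = 0.00285) in non-induced cells. PTGR1, a prostaglandin reductase gene of the same list, was the other of 2 called with that compound in non-induced cells, at 0.28 ± 0.08 (adjusted p = 0.0363), a call that ended without p300/CBP library 2 or 3, without any 1 of the DMSO libraries and with all 6 groups in 1 fit (adjusted p = 0.0710 to 0.161). PTGR1 was also the 1 gene of the list called on induction, at 0.44 ± 0.10 (adjusted p = 0.0192), which ended when any 1 of the non-induced DMSO libraries was left out (adjusted p = 0.0763 to 0.0928). Of 13 oxidative stress and thioredoxin-glutathione genes, 0 were called in the p300/CBP comparison of induced cells by edgeR (4 at an unadjusted p below 0.05, 0 by DESeq2), which is near the share over all genes. On induction 2 of the 13 were called, again near that share: GCLM, a glutathione synthesis subunit gene, and TXNRD1, a thioredoxin reductase gene, fell, with log2 fold changes of -0.40 ± 0.07 (adjusted p = 0.00636) and -0.33 ± 0.06 (adjusted p = 0.00752). The GCLM call ended without the first non-induced DMSO library (adjusted p = 0.0541) and the TXNRD1 call without the first or second (adjusted p = 0.0585 and 0.0586).

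The profile of TP53I3 over the 6 group means was closest to that of CDKN1A, with a root mean square distance of 0.166 (log2(CPM + 0.5), each gene centred on its own mean, 13274 genes compared). CDKN1A averaged 2390 ± 59.6 CPM with the p300/CBP compound, 831 ± 26.7 CPM with the PCAF/GCN5 compound and 352 ± 25.2 CPM with DMSO in induced cells, and 89.6 to 105 CPM over the non-induced groups. The next nearest were DPYSL4 (0.310), MIR34AHG (0.493), ABCA12 (0.5002) and LINC00324 (0.527), and TP53I11 stood 51st, at 1.00. TP53I11 had no such near neighbour: CDKN1A (0.935), GDF15 (0.943), TP53I3 (1.00), BTG2 (1.03) and CYFIP2 (1.08) were nearest. These distances include the compound responses that chose the 2 genes and are given as a description. They count the size of each change as well as its shape. The non-induced TP53I11 means of 0.354 to 0.391 CPM lie below the 0.5 that was added, which flattens its profile there.

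**Figure D5:**
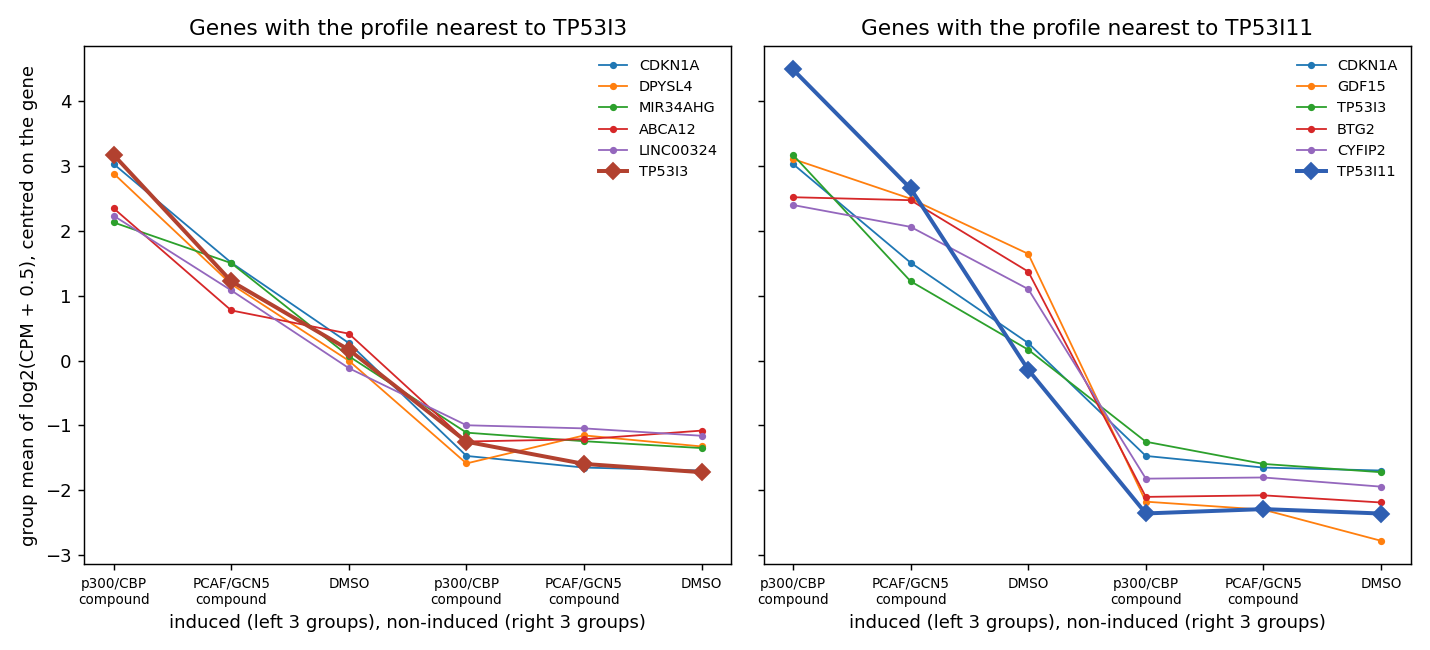
Group means of log2(CPM + 0.5), centred on each gene (vertical axis), over the 6 groups (horizontal axis), for TP53I3 (left panel) and TP53I11 (right panel) with the 5 genes nearest to each. CDKN1A runs close to TP53I3 in every group, while TP53I11 lies above its nearest genes in the induced p300/CBP group.

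The genes lying beside TP53I3 were too few to set apart from the 5.98% of all genes called in the p300/CBP comparison of induced cells. Within 100 kb of TP53I3 there were 12 other genes, of which 6 were tested and 0 were called with the p300/CBP compound in induced cells by edgeR (1 at an unadjusted p below 0.05, 0 by DESeq2). The splicing factor gene SF3B6 was at -0.24 ± 0.08 (adjusted p = 0.119) and WDCP at 0.05 ± 0.09 (adjusted p = 0.769). FAM228B, which overlaps all of TP53I3 on the other strand, had 6 to 31 counts per library and was at 0.15 ± 0.31 (adjusted p = 0.796). On the other strand of TP53I11, TSPAN18 overlapped it with 0 to 2 counts per library, and none of its 3 neighbours was tested. Whether strand was used in counting is not given in the sources used here, so reads of overlapping genes may not be apart.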

How the data were processed

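RNA of 18 libraries was extracted and made into directional libraries, per the labels' protocols. Raw counts per gene were deposited by the authors in 4 tables, one per compound and state, per the file headers. Log2 fold changes in the authors' deposited table were made with DESeq2, and StringTie was also named, per the submitters' processing notes; the aligner, counting program, genome build and annotation are not given in the sources used here. The 2 tables of induced cells give log2 fold changes as DMSO over compound; these were reversed here. Deposited positions match GRCh38, as 79.5% of the identifiers shared with GENCODE 29 (46492 of 58515) had the same span. The line of ANK2 was broken in 1 table, so ANK2 was left out and the non-induced DMSO counts were read from the other table. This left 60622 genes.

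For every comparison, edgeR 4.0.16 (R 4.3.3) was run on the libraries of the groups compared: TMM, filterByExpr on the groups, glmQLFit and the 2-sided quasi-likelihood F test, with Benjamini-Hochberg adjustment over the genes tested and calls at an adjusted p below 0.05. Standard errors are the absolute log2 fold change divided by the square root of F. CPM are counts over the library total times 1e6. Ratios of summed counts carry exact (conditional binomial) 95% intervals, which like the floors cover counting error only; they were chosen after seeing that the non-induced libraries held 2 to 13 TP53I11 counts. Replicate numbers come from the labels; over 15 pairs of groups, same-numbered libraries never all correlated above 0.1 (r from -0.273 to 0.296), so they were not treated as pairs. The fits were also run on counts simulated from these libraries' own means and spread, without an outlying library. The outcome is not given here, so it does not bear on the calls. The genes and lists were chosen with earlier results of these data known. Named genes are TP53I3 and TP53I11, genes within 100 kb of them, the p53-induced series, quinone reductases, the 3 largest called members of each p53 list in the p300/CBP and induction comparisons, and the 5 genes nearest in profile; others named were chosen after their values were seen. Alternatives were DESeq2 1.42.0, its size factors, no filter on low counts, all 6 groups in 1 fit, a replicate block, and each library left out. Some results are not reported here.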

Additional observations from a re-analysis of the deposited data

How the results depend on the processing

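TP53I3 stayed within the spread of its libraries in all 111 alternatives, and TP53I11 in 97 of 110, and it did not pass the filter on low counts in 1 further setting, the p300/CBP comparison of non-induced cells without p300/CBP library 1. Both kept their induction call in every alternative run, with log2 fold changes of 1.84 to 1.92 for TP53I3 and 2.95 to 3.67 for TP53I11 when 1 library was left out. The 13 TP53I11 values that moved came from leaving out 1 library, where non-induced counts are few: 0.19 became -0.19 to 0.58 with the p300/CBP compound in non-induced cells, 0.22 became -0.16 to 0.54 with the PCAF/GCN5 compound, and -0.03 became -0.32 to 0.36 between compounds. The differences between states ran from 4.22 to 4.99 and from 2.35 to 3.09.

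Counts of called genes moved more than the 2 genes did. With no filter on low counts, 2106 genes were called for the p300/CBP compound in induced cells, 541 (27 p53 targets higher) for the PCAF/GCN5 compound in induced cells and 48 for it in non-induced cells. With all 6 groups in 1 fit these became 2214, 352 (29 targets) and 0, with 615 (2 targets) for the p300/CBP compound in non-induced cells and 3455 on induction. With DESeq2 the PCAF/GCN5 counts were 106 (22 targets) in induced and 5 in non-induced cells. With the replicate block 530 genes were called for the p300/CBP compound in induced cells and 14 for the PCAF/GCN5 compound in non-induced cells, and the CRYZL1 call ended (adjusted p = 0.0706). Leaving out 1 library gave 263 (without p300/CBP library 3) to 3234 (without induced DMSO library 3) genes, with 28 to 46 targets, for the p300/CBP compound in induced cells. The PCAF/GCN5 range there was 29 to 114, with 7 to 25 targets. In non-induced cells it was 527 to 2384 (1 to 9 targets) and 0 to 17 genes, and on induction 869 to 5001, with 37 to 45 targets; the causes were not tested. Library by library, the p300/CBP count in induced cells was 335, 283 and 263 without p300/CBP libraries 1, 2 and 3, and 528 and 3234 without DMSO libraries 1 and 3. The PCAF/GCN5 count in induced cells was 30, 31 and 29 without PCAF/GCN5 libraries 1, 2 and 3 and 114 without DMSO library 3. The p300/CBP count in non-induced cells was 2384 and 703 without p300/CBP libraries 1 and 2, and 581, 527 and 795 without DMSO libraries 1, 2 and 3. The induction count was 1372 and 5001 without induced DMSO libraries 1 and 3, and 945, 869 and 1012 without non-induced DMSO libraries 1, 2 and 3. The precision of TP53I11 outside induced cells is limited by depth.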
